A study of Mus musculus with 18 samples.

Results

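The genes described here are those of the machinery that copies the genome, from the proteins that mark an origin to those that join the finished strands and repackage them. The list held 48 genes, chosen by symbol and role with earlier results of these data known. Of these, 46 were each measured by 1 probe set among the 19505 genes tested. Orc5 and Mcm7 matched no probe set with a single gene symbol and were not analysed here. The arrays were Affymetrix Clariom S arrays of total RNA from C57Bl/6J mice, and they compared blood stem and progenitor cells before birth with those of the adult. Cells came from the fetal liver (FL) of E13.5 embryos or from bone marrow (BM) of mice aged 3 to 12 months. Within the LSK gate (lineage-negative cells with Sca-1 and Kit on their surface), Cd150 and Cd48 staining separated stem cells with long-term (LT-HSC) or short-term (ST-HSC) repopulating activity and multipotent progenitors (MPP). Each of the 6 groups of source and population held 3 arrays, lettered a, b and c, 18 in all. No label tied an array to an animal or a pool, so the p-values measure the spread between these arrays, which may be technical. Development and tissue differed together between FL and BM and cannot be told apart.

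The labels did not all tell the same story. Titles, source names, cell types and stages placed each array in its group, and those were used. Free text on the same records spoke instead of transplanted marrow with guide RNAs, with sgEzh2 on 4 FL arrays (FL LT-HSC a, FL ST-HSC a and FL MPP a and b) and sgLuc on the others. Counts of called genes in the comparisons of FL with BM are given with and without those 4 FL arrays. Without them FL MPP holds array c alone, so the counts in MPP and for the average then draw on that array for FL MPP. The 18 arrays had medians from 7.68 to 7.78 on the log2 scale, and correlated at 0.960 to 0.994 within groups and 0.934 to 0.988 between them. In 4 arrays, FL LT-HSC b, BM LT-HSC c and BM ST-HSC b and c, the values were more tightly packed, with an interquartile range of 2.61 to 2.71 against 2.98 to 3.18 in the rest. They are called the narrow arrays below, and the same counts are given with and without them. For FL against BM, on average and within a population, shares of all genes called lower are given with all arrays only. Counts called lower there with arrays left out are therefore no result about the listed genes. Kit, Slamf1, Cd48, Flt3 and Cd34 are called sort markers here, though Flt3 and Cd34 were not among the markers named for the sort. Of the sort markers, Kit was at 13.04 to 13.37 (median 13.18) in FL and 12.81 to 13.30 (median 13.16) in BM, with a difference of 0.04 ± 0.07 (adjusted p = 0.699), and Cd48 and Flt3 did not pass either. Slamf1, which encodes Cd150, was lower in FL, at -0.48 ± 0.11 (adjusted p = 0.0025), and Cd34 higher, at 0.40 ± 0.07 (adjusted p = 0.000528). Of the 5 measured sort markers 1 was called higher and 1 lower, against 1 and 2 without the narrow arrays and 1 and 0 without the sgEzh2-described FL arrays. With all arrays, 15.9% of all genes were called higher and 9.26% lower. Ly6a, the gene of Sca-1, was not analysed here.

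Replication is licensed before S phase, when the origin recognition complex with Cdc6 and Cdt1 loads the ring-shaped MCM helicase onto DNA and geminin later blocks any further loading. At firing, Cdc45 and the GINS complex join the MCM ring to form the active helicase, polymerase alpha with primase lays short primers, and polymerases epsilon and delta extend the leading and lagging strands on the sliding clamp Pcna. Transcripts of many of these genes rise as cells enter S phase under E2F transcription factors, and fetal liver stem cells are known to divide far more often than those of adult marrow, which are mostly quiescent.

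Replication genes were higher in FL than in BM for most of the list. With the FL minus BM difference averaged over the 3 populations, 36 of the 46 measured members were called higher in FL and none lower, in limma, at an adjusted p under 0.05 (Benjamini-Hochberg, over all genes). Over all genes tested 15.9% were called higher and 9.26% lower. The median difference of the members was 0.39 on the log2 scale, against 0.01 for all genes, and 45 of 46 members had a positive difference. Pola1, the catalytic subunit of polymerase alpha, was the exception at -0.03 ± 0.15. In sorted bulk RNA, fewer cells of a type and less RNA per cell cannot be told apart, and this holds for every difference below.

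The largest differences were those of Nasp, a histone chaperone (2.17-fold, 1.12 ± 0.11 log2), Exo1, an exonuclease (2.02-fold), and the GINS genes Gins1 (1.76-fold) and Gins2 (1.73-fold). The members that did not pass were Orc2, Orc4, Mcm6, Pola1, Pold2, Pcna, Rfc1, Rfc2, Rpa1 and Chaf1b. All 46 members had a mean over the 18 arrays above the highest array median, so none was dim. Among genes without the dimmest 30%, 23.0% were called higher and 12.0% lower. Leaving out the narrow arrays left 29 members higher and none lower, with a median difference of 0.32 and 11.7% of all genes called higher. Leaving out the 4 FL arrays described with sgEzh2 left 22, beside 7.59% of all genes. Of the 36 called members, 21 kept the call under each of the 28 alternatives run.

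**Figure D1:**
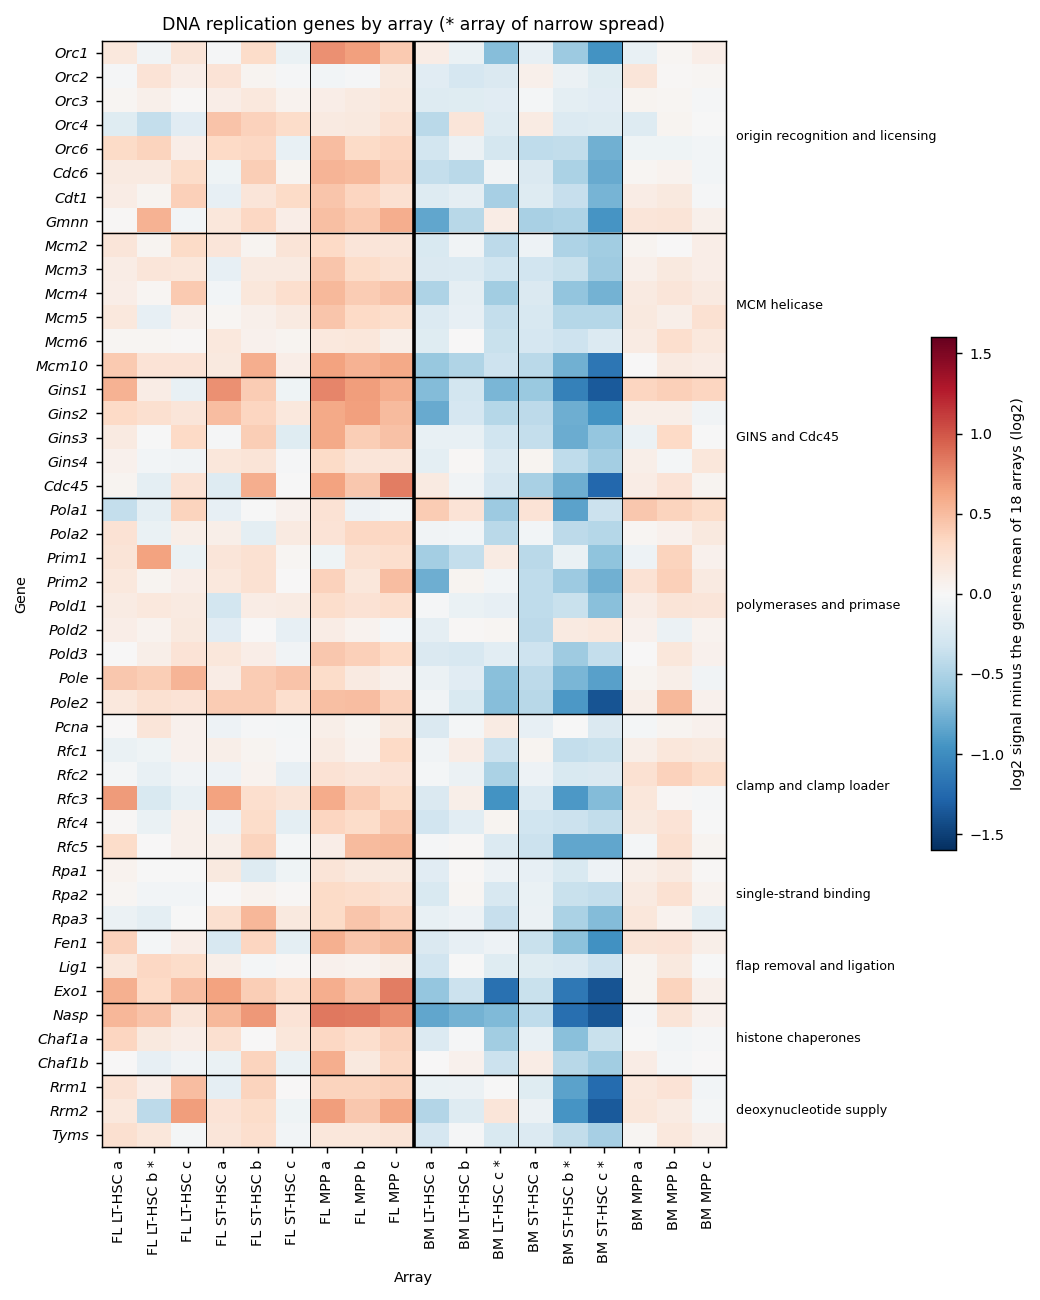
Signal of the 46 replication genes (vertical, grouped by role) on the 18 arrays (horizontal), as log2 signal minus the gene's own mean over the arrays, with red above and blue below it and asterisks on the 4 narrow arrays. The FL arrays, left of the thick line, are mostly red, BM ST-HSC arrays b and c are the deepest blue, and the BM MPP arrays lie near the FL arrays.

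By population, the count was largest in ST-HSC with all arrays, while without the narrow arrays it was 9 in LT-HSC, 8 in ST-HSC and 8 in MPP. In LT-HSC 10 members were called higher (Orc6, Mcm3, Mcm4, Mcm10, Gins1, Gins2, Pole, Lig1, Exo1 and Nasp) and none lower, beside 3.08% and 4.58% of all genes, with a member median of 0.33. In ST-HSC 32 were called higher and none lower, beside 12.1% and 6.52%, with a median of 0.54. In MPP Gins2 and Nasp were called higher and none lower, beside 1.92% and 3.55%, with a median of 0.24. Gins2 and Nasp were thus the members called in each of the 3 populations. Whether the difference depended on the population was tested with interaction contrasts in limma, and 0 members passed in any of the 3. For ST-HSC minus LT-HSC, 0.328% of all genes were called higher and 0.0513% lower. The shares were 0.328% and 0.215% for MPP minus LT-HSC, and 0.041% and 0.144% for MPP minus ST-HSC. The member median was 0.22 for ST-HSC minus LT-HSC and -0.31 for MPP minus ST-HSC. At an unadjusted p under 0.05, a looser threshold than that of these shares, members numbered 5 for ST-HSC minus LT-HSC, 4 for MPP minus LT-HSC and 12 for MPP minus ST-HSC. The share of all genes at that looser threshold is not given, so these numbers are no result about the members. With array weights, which count deviant arrays less, 4 members passed, all higher, for ST-HSC minus LT-HSC, beside 5.4% of all genes called higher, and 18, all lower, for MPP minus ST-HSC, beside 9.71% lower. Without BM ST-HSC a, 1 and 5 passed in those contrasts, beside 1.05% and 1.34% of genes in the same direction, and without BM LT-HSC c 2 passed in the latter, beside 0.913%.

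The arrays behind these calls can be read directly. In LT-HSC, all 3 FL arrays lay above all 3 BM arrays for 25 of the 46 members, beside 11% of all genes. In ST-HSC this held for 36 members, beside 18.8%, and in MPP for 33, beside 19.1%. In all 3 populations at once it held for 18 members, beside 4.35% of genes. The opposite order, all FL arrays below all BM arrays, held for no member in LT-HSC, in ST-HSC or in all 3 populations at once, beside 8.02%, 16% and 3.02% of genes, and for Pola1 and Rfc2 in MPP, beside 13.8%. When the narrow arrays were left out, FL lay above BM for 34 members in LT-HSC, 38 in ST-HSC, 33 in MPP and 23 in all 3, beside 27.5%, 30.6%, 19.1% and 7.06% of all genes. With all arrays, MPP separated about as many members as ST-HSC while far fewer passed the test. The median member difference was 0.24 in MPP and 0.54 in ST-HSC, and 0.35 in ST-HSC without the narrow arrays.

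**Figure D2:**
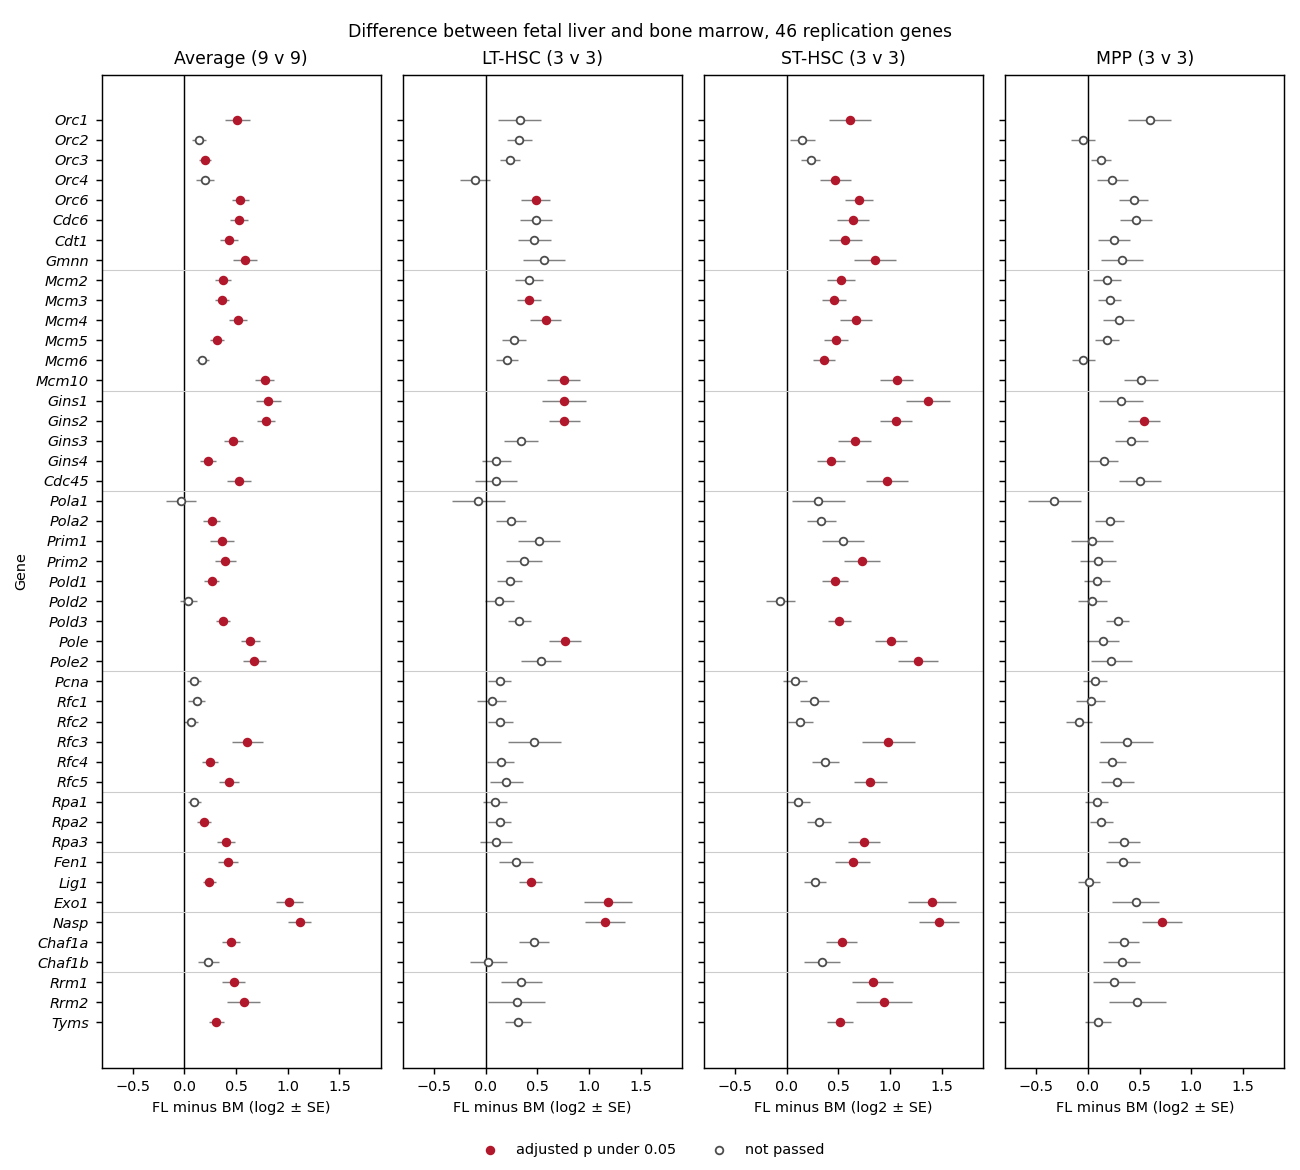
Difference between FL and BM for each of the 46 replication genes (log2, bars are SE), averaged over the populations and within LT-HSC, ST-HSC and MPP; filled points had an adjusted p under 0.05 in limma and open points did not. All 36 filled points of the average lie right of 0, and filled points number 10, 32 and 2 in LT-HSC, ST-HSC and MPP.

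The counts within a population rested on few arrays. In LT-HSC, 6 members passed without FL LT-HSC a, 6 without FL LT-HSC b and 5 without BM LT-HSC a, beside 1.51%, 2.97% and 2.76% of all genes called higher. There, 3 passed without the 4 sgEzh2-described FL arrays, beside 1.0% of genes, and 9 without the narrow arrays, beside 3.65%. In ST-HSC, 19 passed without FL ST-HSC b, 20 without BM ST-HSC b, 14 without BM ST-HSC c and 18 without the sgEzh2-described FL arrays, beside 5.63%, 5.22%, 4.81% and 5.29% of genes. Without the narrow arrays, which leaves BM ST-HSC with array a alone, 8 passed there, beside 2.66% of all genes called higher, and the median difference was 0.35. In MPP, which holds no narrow array, 8 passed without them, beside 4.92% of all genes. In MPP 0 passed without any 1 of the 6 MPP arrays, beside 1.02% to 1.18% of genes, and 1 without FL LT-HSC a or c, FL ST-HSC b or BM ST-HSC b, which enter through the shared spread, beside 1.76% to 2.07%. The MPP count was 17 with array weights, beside 10.0% of genes. Leaving out the sgEzh2-described FL arrays leaves FL MPP with array c alone, and the median member difference in MPP was then 0.24.

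**Figure D3:**
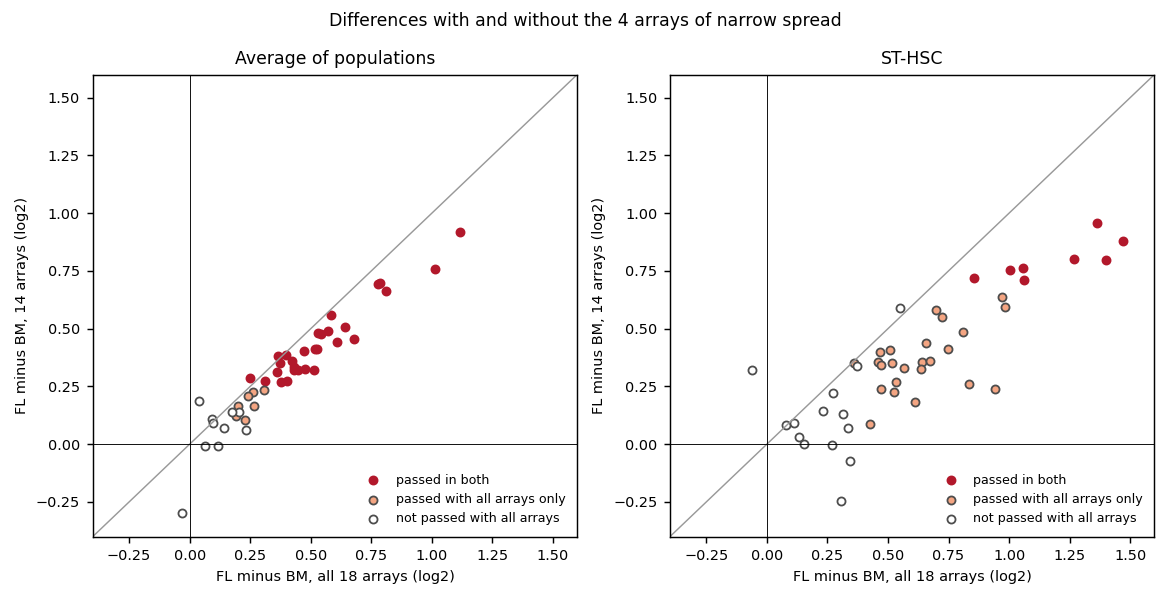
Difference between FL and BM per member (log2) with all 18 arrays (horizontal) and with the 14 arrays left without the narrow ones (vertical), for the average of populations and for ST-HSC; the line marks equal values. Points keep their side of 0 in most cases, and in ST-HSC most lie under the line, where 32 members passed with all arrays and 8 with the 14.

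Transcripts of other cell types also differed between the sources. On average over populations, 15.9% of all genes were called higher in FL and 9.26% lower. The 10 neutrophil markers were all called lower in FL, and their mean level per array ran from 6.40 to 7.53 in FL and from 10.15 to 12.61 in BM. Of 8 measured B cell markers 6 were lower in FL (7.38 to 8.25 against 8.18 to 9.64), and of 8 macrophage markers 5 were lower (6.44 to 6.77 against 7.02 to 8.62). Of 8 hepatocyte markers 4 were higher in FL and 1 lower, with list means of 7.68 to 9.56 in FL and 7.40 to 7.78 in BM. Of 9 measured erythroid markers, Hbb-y, an embryonic globin, was higher by 2.20 ± 0.44 and Car1 was lower, at -3.60 ± 0.27, with list means of 7.64 to 10.29 in FL and 8.11 to 9.51 in BM. Without the narrow arrays the counts lower were 10 neutrophil, 6 B cell and 5 macrophage markers, and those higher and lower were 4 and 0 hepatocyte and 2 and 1 erythroid markers. Without the sgEzh2-described FL arrays they were 10, 6 and 4 lower, and 3 and 0 hepatocyte and 1 and 1 erythroid markers. Array signals have no true 0, so no marker can be called absent. Shares of all genes called lower with arrays left out are not given for these marker counts. The part of these transcripts in the replication gene differences was not tested.

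RefSeq start sites (GRCm38.p6) gave a promoter window, 250 bases before to 50 after the start, for 37 of the 46 measured members. The 8-letter E2F words, TTTCCCGC, TTTCGCGC, TTTGCCGC and TTTGGCGC, were searched on both strands, and they can overlap one another. At least 1 was present for 14 of 37 members (37.8%), against 3.38% of the 15691 tested genes with a window. Counted by window, it was present in 15 of 47 windows of listed genes (31.9%), Mcm7 included, against 2.26% of all 32851 windows. With the first T dropped, the 7-letter words were present for 25 members (67.6%) and 14.2% of genes. A CCAAT box was present for 24 members (64.9%) and 42.2% of genes, the CHR word TTTGAA for 6 (16.2%) and 17.8%, and the E box CACGTG, a word of another factor family, for 8 (21.6%) and 9.26%. The shares with an E2F word, a CCAAT box and an E box were thus each higher among the members than among all genes. The share with the CHR word was not. Of the 14 members with an 8-letter E2F word, 12 were called higher in FL on average, with a median difference of 0.37. Of the 23 without, 16 were called higher, also with a median of 0.37. The median difference was the same with and without the word. A match describes letters and not a bound site.

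The 160 bases before the start are shown for 8 members, 5′ to 3′ on the gene's strand. Capitals mark the 8-letter E2F words, the CHR word and the CCAAT box, or their reverse complements. Orc1, Rfc3, Gins3, Cdc6 and Mcm5 hold an E2F word and were called higher in FL. Mcm6 and Pola1 hold E2F words and did not pass. Nasp, the member with the largest difference, holds a CHR word and a CCAAT box and no E2F word. The stretches are those of Orc1 at chr4:108579294-108579453 (plus strand), Rfc3 at chr5:151651209-151651368 (minus strand), Gins3 at chr8:95633399-95633558 (plus strand) and Cdc6 at chr11:98907991-98908150 (plus strand). The others are those of Mcm5 at chr8:75109349-75109508 (plus strand), Mcm6 at chr1:128359706-128359865 (minus strand), Pola1 at chrX:93632156-93632315 (minus strand) and Nasp at chr4:116627952-116628111 (minus strand).
Orc1: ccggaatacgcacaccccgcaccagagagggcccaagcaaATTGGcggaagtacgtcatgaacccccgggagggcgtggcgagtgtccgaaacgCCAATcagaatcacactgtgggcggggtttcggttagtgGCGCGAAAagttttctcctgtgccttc
Rfc3: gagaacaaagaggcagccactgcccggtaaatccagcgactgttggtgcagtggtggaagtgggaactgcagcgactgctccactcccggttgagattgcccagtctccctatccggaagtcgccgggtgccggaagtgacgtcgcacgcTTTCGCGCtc
Gins3: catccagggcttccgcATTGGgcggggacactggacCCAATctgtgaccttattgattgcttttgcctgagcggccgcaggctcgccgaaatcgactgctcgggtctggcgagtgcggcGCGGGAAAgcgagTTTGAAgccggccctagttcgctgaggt
Cdc6: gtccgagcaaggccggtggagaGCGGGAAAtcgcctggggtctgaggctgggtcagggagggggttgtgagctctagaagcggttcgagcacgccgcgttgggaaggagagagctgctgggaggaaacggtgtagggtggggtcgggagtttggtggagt
Mcm5: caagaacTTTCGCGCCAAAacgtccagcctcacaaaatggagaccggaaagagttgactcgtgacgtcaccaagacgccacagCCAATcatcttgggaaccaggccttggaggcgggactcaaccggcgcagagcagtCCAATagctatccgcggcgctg
Mcm6: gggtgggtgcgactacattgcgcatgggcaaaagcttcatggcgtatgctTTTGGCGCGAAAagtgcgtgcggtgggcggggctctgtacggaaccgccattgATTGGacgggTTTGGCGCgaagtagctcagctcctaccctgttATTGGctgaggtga
Pola1: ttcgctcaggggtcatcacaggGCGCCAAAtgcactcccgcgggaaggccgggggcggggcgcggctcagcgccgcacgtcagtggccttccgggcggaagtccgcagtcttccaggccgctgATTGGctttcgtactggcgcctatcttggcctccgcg
Nasp: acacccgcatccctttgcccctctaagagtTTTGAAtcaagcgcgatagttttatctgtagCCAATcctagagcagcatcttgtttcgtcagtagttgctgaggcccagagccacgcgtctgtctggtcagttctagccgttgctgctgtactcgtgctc

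Licensing factors were among the members that rose. Of the 8 measured, 6 were called higher in FL on average (Orc1, Orc3, Orc6, Cdc6, Cdt1 and Gmnn), with a median of 0.47, and 1, Orc6, in LT-HSC. In ST-HSC, 6 passed (Orc1, Orc4, Orc6, Cdc6, Cdt1 and Gmnn). For this and the later lists, the shares of all genes called higher were 15.9% on average, 3.08% in LT-HSC, 12.1% in ST-HSC and 1.92% in MPP. Shares of all genes called higher with arrays left out are given above, beside the counts of all members, except for MPP without the sgEzh2-described FL arrays. That fit leaves FL MPP with array c alone, so its MPP counts below are no result about the listed genes. Values are given per group below, for arrays a, b and c. Gmnn read 9.06, 9.60 and 8.99 in FL LT-HSC, 9.22, 9.37 and 9.14 in FL ST-HSC and 9.52, 9.46 and 9.62 in FL MPP, against 8.21, 8.60 and 9.16 in BM LT-HSC, 8.52, 8.55 and 8.10 in BM ST-HSC and 9.23, 9.25 and 9.12 in BM MPP. Gmnn encodes geminin, the inhibitor of Cdt1, and its FL arrays were above the BM arrays in ST-HSC and MPP but overlapped in LT-HSC, where the narrow BM array c was high. The average difference was 0.58 ± 0.12 (adjusted p = 0.00106). Orc6 read 10.97, 11.01 and 10.76 in FL LT-HSC, 10.97, 10.99 and 10.55 in FL ST-HSC and 11.15, 10.97 and 11.00 in FL MPP, against 10.36, 10.56 and 10.37 in BM LT-HSC, 10.26, 10.26 and 9.89 in BM ST-HSC and 10.59, 10.59 and 10.61 in BM MPP. Orc6, the smallest subunit of the origin recognition complex, was above BM in every FL array of each population, and the average difference was 0.54 ± 0.08 (adjusted p = 7.82e-05).

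Orc1, the subunit of the origin recognition complex that comes and goes with the cell cycle, followed the same order less evenly. Orc1 read 9.13, 8.90 and 9.16 in FL LT-HSC, 8.93, 9.25 and 8.85 in FL ST-HSC and 9.68, 9.62 and 9.37 in FL MPP, against 9.07, 8.85 and 8.28 in BM LT-HSC, 8.83, 8.38 and 8.0 in BM ST-HSC and 8.83, 8.98 and 9.07 in BM MPP. The FL and BM arrays overlapped in LT-HSC and not in ST-HSC or MPP, and the average difference was 0.51 ± 0.12 (adjusted p = 0.00359). Orc4, another subunit, had another pattern. Orc4 read 8.34, 8.16 and 8.36 in FL LT-HSC, 9.0, 8.91 and 8.83 in FL ST-HSC and 8.68, 8.70 and 8.78 in FL MPP, against 8.10, 8.73 and 8.33 in BM LT-HSC, 8.68, 8.32 and 8.34 in BM ST-HSC and 8.33, 8.58 and 8.53 in BM MPP. FL LT-HSC was the lowest FL group, BM LT-HSC b was above every FL LT-HSC array, and the average difference of 0.20 ± 0.09 (adjusted p = 0.0966) did not pass. Cdc6, which with Cdt1 loads the helicase, had a difference of 0.53 ± 0.09 (adjusted p = 0.00023) and Cdt1 of 0.43 ± 0.09 (adjusted p = 0.0018). Orc3 differed by 0.20 ± 0.06 (adjusted p = 0.0131) and Orc2, at 0.14 ± 0.07 (adjusted p = 0.141), did not pass. For the licensing genes, the counts called higher on average, in LT-HSC, in ST-HSC and in MPP were 5, 2, 1 and 3 without the narrow arrays and 4, 0, 3 and 0 without the sgEzh2-described FL arrays.

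Of the 6 measured genes of the MCM group, 5 were called higher on average (median 0.37), 3 in LT-HSC (Mcm3, Mcm4 and Mcm10) and all 6 in ST-HSC. Mcm10, which is not a ring subunit but helps start unwinding, had the largest difference. Mcm10 read 10.71, 10.50 and 10.51 in FL LT-HSC, 10.44, 10.86 and 10.39 in FL ST-HSC and 10.93, 10.85 and 10.89 in FL MPP, against 9.68, 9.81 and 9.96 in BM LT-HSC, 9.85, 9.52 and 9.13 in BM ST-HSC and 10.30, 10.43 and 10.41 in BM MPP. The FL arrays were above the BM arrays in each population, and BM ST-HSC c was the lowest of the 18. The average difference was 0.78 ± 0.09 (adjusted p = 8.21e-06). Mcm4 read 10.63, 10.55 and 10.94 in FL LT-HSC, 10.47, 10.70 and 10.79 in FL ST-HSC and 11.04, 10.92 and 10.98 in FL MPP, against 10.03, 10.37 and 9.97 in BM LT-HSC, 10.30, 9.89 and 9.76 in BM ST-HSC and 10.67, 10.71 and 10.67 in BM MPP. Mcm4, a ring subunit, also separated in each population, with an average difference of 0.52 ± 0.09 (adjusted p = 0.000282), although its BM MPP arrays reached into the range of FL LT-HSC and FL ST-HSC. The other ring subunits differed by 0.38 ± 0.08 (Mcm2), 0.36 ± 0.07 (Mcm3) and 0.31 ± 0.07 (Mcm5), and Mcm6, at 0.17 ± 0.06 (adjusted p = 0.052), did not pass on average. Mcm6 was called higher in ST-HSC, by 0.36 ± 0.11 (adjusted p = 0.0302). In MPP, where its BM arrays were at 11.85, 11.98 and 11.88 and its FL arrays at 11.88, 11.89 and 11.81, the difference was -0.04 ± 0.11. For the MCM genes, the counts called higher on average, in LT-HSC, in ST-HSC and in MPP were 5, 2, 1 and 1 without the narrow arrays and 3, 0, 3 and 0 without the sgEzh2-described FL arrays.

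All 5 GINS and Cdc45 genes were called higher in FL on average (median 0.53) and all 5 in ST-HSC (median 0.97), Gins1 and Gins2 in LT-HSC and Gins2 in MPP. These proteins turn the loaded MCM ring into a moving helicase. Gins1 read 10.34, 9.91 and 9.67 in FL LT-HSC, 10.52, 10.19 and 9.72 in FL ST-HSC and 10.56, 10.45 and 10.37 in FL MPP, against 9.10, 9.50 and 9.06 in BM LT-HSC, 9.19, 8.71 and 8.45 in BM ST-HSC and 10.14, 10.16 and 10.13 in BM MPP. Gins1 was spread widely within FL LT-HSC and FL ST-HSC, yet all FL arrays were above the BM arrays of their population, and the average difference was 0.81 ± 0.12 (adjusted p = 8.87e-05). Gins2 read 10.54, 10.48 and 10.42 in FL LT-HSC, 10.72, 10.58 and 10.40 in FL ST-HSC and 10.83, 10.89 and 10.73 in FL MPP, against 9.42, 9.96 and 9.78 in BM LT-HSC, 9.80, 9.45 and 9.27 in BM ST-HSC and 10.33, 10.32 and 10.17 in BM MPP. Gins2 separated in each population and was higher by 0.76 ± 0.15 (adjusted p = 0.00313) in LT-HSC, 1.06 ± 0.15 (adjusted p = 0.000146) in ST-HSC and 0.54 ± 0.15 (adjusted p = 0.042) in MPP.

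Cdc45 read 9.26, 9.07 and 9.46 in FL LT-HSC, 9.01, 9.80 and 9.21 in FL ST-HSC and 9.87, 9.65 and 10.04 in FL MPP, against 9.36, 9.17 and 8.95 in BM LT-HSC, 8.71, 8.44 and 7.96 in BM ST-HSC and 9.34, 9.44 and 9.27 in BM MPP. For Cdc45 the LT-HSC arrays of both sources overlapped, and BM ST-HSC c, at 7.96, was the lowest of all 18. The difference was 0.10 ± 0.20 in LT-HSC, where it did not pass, and 0.97 ± 0.20 (adjusted p = 0.00365) in ST-HSC. Gins3 and Gins4 differed on average by 0.47 ± 0.09 (adjusted p = 0.00099) and 0.23 ± 0.08 (adjusted p = 0.0443). Gins4 had the smallest average difference of the 5. For the GINS and Cdc45 genes, the counts called higher on average, in LT-HSC, in ST-HSC and in MPP were 4, 1, 2 and 1 without the narrow arrays and 4, 0, 3 and 0 without the sgEzh2-described FL arrays.

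**Figure D4:**
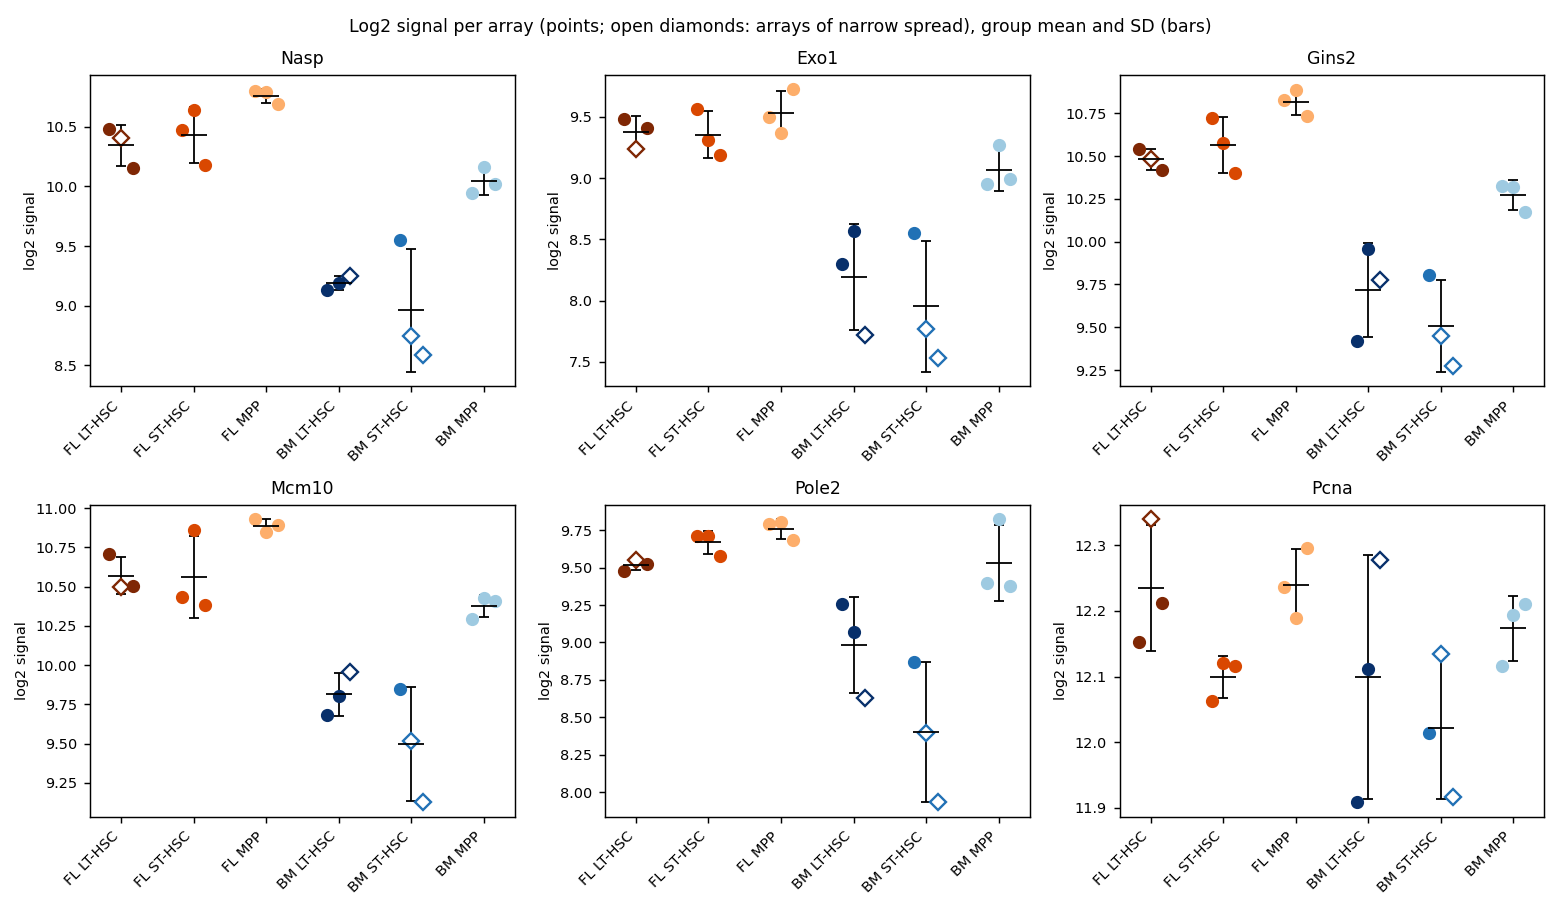
Log2 signal of Nasp, Exo1, Gins2, Mcm10, Pole2 and Pcna on each array by group (points, with open diamonds for narrow arrays), with the group mean and SD as bars. Nasp, Exo1, Gins2 and Mcm10 lie higher in all 3 FL groups than in their BM counterparts, Pole2 overlaps in MPP, and Pcna overlaps in each population.

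Of the 9 polymerase and primase genes, 7 were called higher on average (median 0.37), Pole alone in LT-HSC, 5 in ST-HSC (Prim2, Pold1, Pold3, Pole and Pole2) and 0 in MPP. Pole and Pole2, of polymerase epsilon, which extends the leading strand, led. Its other subunit genes Pole3 and Pole4, kept in the list of firing and fork factors, lay closer between the sources. Their medians were 9.56 and 11.16 in FL and 9.34 and 11.20 in BM. Pole2 read 9.48, 9.55 and 9.53 in FL LT-HSC, 9.71, 9.71 and 9.58 in FL ST-HSC and 9.79, 9.80 and 9.68 in FL MPP, against 9.26, 9.07 and 8.63 in BM LT-HSC, 8.87, 8.40 and 7.93 in BM ST-HSC and 9.40, 9.82 and 9.38 in BM MPP. Pole2, an accessory subunit, separated in LT-HSC and ST-HSC and overlapped in MPP, where BM MPP b was the highest of the 6, and the average difference was 0.68 ± 0.11 (adjusted p = 0.000237). Pole read 11.54, 11.50 and 11.65 in FL LT-HSC, 11.23, 11.51 and 11.56 in FL ST-HSC and 11.41, 11.25 and 11.19 in FL MPP, against 11.02, 10.93 and 10.44 in BM LT-HSC, 10.68, 10.38 and 10.23 in BM ST-HSC and 11.15, 11.20 and 11.05 in BM MPP. Pole, the catalytic subunit, was highest in FL LT-HSC and FL ST-HSC rather than in FL MPP, and differed by 0.77 ± 0.15 (adjusted p = 0.00369) in LT-HSC and by 0.15 ± 0.15 in MPP, where it did not pass.

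Polymerase alpha and primase make primers together, and Pola1 was the gene of theirs that did not pass. Pola2, Prim1 and Prim2 were higher by 0.26 ± 0.08, 0.37 ± 0.12 and 0.40 ± 0.10. Pola1 read 10.19, 10.42 and 10.92 in FL LT-HSC, 10.44, 10.56 and 10.64 in FL ST-HSC and 10.80, 10.49 and 10.52 in FL MPP, against 10.97, 10.79 and 9.99 in BM LT-HSC, 10.79, 9.71 and 10.22 in BM ST-HSC and 11.00, 10.93 and 10.86 in BM MPP. Pola1 varied widely within groups, was lowest in the narrow BM ST-HSC b and BM LT-HSC c, and was lower in all 3 FL MPP arrays than in the BM MPP arrays. Its difference was -0.33 ± 0.26 in MPP, which did not pass (adjusted p = 0.637). For polymerase delta, the lagging strand enzyme, Pold1 and Pold3 were higher by 0.26 ± 0.07 and 0.37 ± 0.06, while Pold2 read 10.54 to 10.87 in FL and 10.30 to 10.88 in BM and differed by 0.04 ± 0.08 (adjusted p = 0.774). For the polymerase and primase genes, the counts called higher on average, in LT-HSC, in ST-HSC and in MPP were 5, 1, 2 and 0 without the narrow arrays and 4, 1, 3 and 0 without the sgEzh2-described FL arrays.

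The sliding clamp and its loader included both kinds of members. Of the 6, 3 were called higher on average (Rfc3, Rfc4 and Rfc5, median 0.18), Rfc3 and Rfc5 in ST-HSC and 0 in LT-HSC or MPP. Rfc3 read 9.55, 8.63 and 8.75 in FL LT-HSC, 9.51, 9.14 and 9.07 in FL ST-HSC and 9.47, 9.27 and 9.18 in FL MPP, against 8.64, 8.96 and 7.92 in BM LT-HSC, 8.65, 7.95 and 8.18 in BM ST-HSC and 9.06, 8.88 and 8.85 in BM MPP. Rfc3, a small subunit of the clamp loader, separated in ST-HSC and MPP and overlapped in LT-HSC, and the average difference was 0.61 ± 0.15 (adjusted p = 0.00505). Rfc5 read 9.25, 8.96 and 9.04 in FL LT-HSC, 9.05, 9.31 and 8.92 in FL ST-HSC and 9.06, 9.46 and 9.47 in FL MPP, against 8.93, 8.97 and 8.74 in BM LT-HSC, 8.61, 8.13 and 8.12 in BM ST-HSC and 8.93, 9.21 and 9.0 in BM MPP. Rfc5, another small subunit, separated in ST-HSC alone, with an average difference of 0.43 ± 0.09 (adjusted p = 0.00211).

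Pcna, the clamp itself and a common marker of cycling cells, was nearly level between the sources. Pcna read 12.15, 12.34 and 12.21 in FL LT-HSC, 12.06, 12.12 and 12.12 in FL ST-HSC and 12.24, 12.19 and 12.30 in FL MPP, against 11.91, 12.11 and 12.28 in BM LT-HSC, 12.01, 12.13 and 11.92 in BM ST-HSC and 12.12, 12.19 and 12.21 in BM MPP. The FL and BM arrays overlapped in each population, and the average difference of 0.09 ± 0.07 (adjusted p = 0.341) did not pass. Rfc1, the large loader subunit, differed by 0.12 ± 0.08 (adjusted p = 0.318) and Rfc2 by 0.06 ± 0.07 (adjusted p = 0.57). Rfc2 was lower in all 3 FL MPP arrays (11.43, 11.39 and 11.41) than in the BM MPP arrays (11.44, 11.56 and 11.49), a difference of -0.08 ± 0.12 that did not pass. For the clamp and its loader, the counts called higher on average, in LT-HSC, in ST-HSC and in MPP were 3, 0, 0 and 0 without the narrow arrays and 1, 0, 1 and 0 without the sgEzh2-described FL arrays.

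Replication protein A coats single-stranded DNA at the fork. Of its 3 genes, Rpa2 and Rpa3 were called higher on average (median 0.19), Rpa3 also in ST-HSC, and none in LT-HSC or MPP. Rpa3 read 10.03, 9.96 and 10.11 in FL LT-HSC, 10.37, 10.65 and 10.28 in FL ST-HSC and 10.42, 10.56 and 10.49 in FL MPP, against 10.00, 10.04 and 9.75 in BM LT-HSC, 10.02, 9.61 and 9.42 in BM ST-HSC and 10.30, 10.17 and 9.96 in BM MPP. Rpa3 was lower in FL LT-HSC than in FL ST-HSC and FL MPP, separated from BM in ST-HSC and MPP, and differed on average by 0.40 ± 0.09 (adjusted p = 0.00237). Rpa2 read 10.43, 10.35 and 10.35 in FL LT-HSC, 10.40, 10.45 and 10.42 in FL ST-HSC and 10.70, 10.67 and 10.64 in FL MPP, against 10.15, 10.43 and 10.14 in BM LT-HSC, 10.29, 10.04 and 10.01 in BM ST-HSC and 10.53, 10.64 and 10.45 in BM MPP. Rpa2 overlapped in LT-HSC, and its average difference was small, at 0.19 ± 0.07 (adjusted p = 0.0396). Rpa1, the large subunit, at 0.10 ± 0.06 (adjusted p = 0.317), did not pass. For the replication protein A genes, the counts called higher on average, in LT-HSC, in ST-HSC and in MPP were 1, 0, 0 and 0 without the narrow arrays and 1, 0, 1 and 0 without the sgEzh2-described FL arrays.

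The genes that finish the lagging strand, Exo1, Fen1 and Lig1, were all called higher on average (median 0.42), Exo1 and Lig1 in LT-HSC and Exo1 and Fen1 in ST-HSC. Exo1 read 9.48, 9.24 and 9.41 in FL LT-HSC, 9.56, 9.31 and 9.19 in FL ST-HSC and 9.50, 9.37 and 9.73 in FL MPP, against 8.30, 8.57 and 7.72 in BM LT-HSC, 8.56, 7.77 and 7.53 in BM ST-HSC and 8.95, 9.27 and 8.99 in BM MPP. Exo1, an exonuclease of replication and repair, separated in each population, and BM LT-HSC c and BM ST-HSC b and c, all narrow, were its 3 lowest arrays. The difference was 1.18 ± 0.23 (adjusted p = 0.00281) in LT-HSC, 1.40 ± 0.23 (adjusted p = 0.000516) in ST-HSC and 0.46 ± 0.23 (adjusted p = 0.354) in MPP. Fen1 read 10.39, 9.99 and 10.12 in FL LT-HSC, 9.77, 10.36 and 9.87 in FL ST-HSC and 10.60, 10.47 and 10.53 in FL MPP, against 9.79, 9.89 and 9.94 in BM LT-HSC, 9.67, 9.36 and 9.05 in BM ST-HSC and 10.23, 10.23 and 10.12 in BM MPP. Fen1, the flap endonuclease, also separated in each population, by smaller steps, with an average difference of 0.42 ± 0.10 (adjusted p = 0.00313). Lig1, the ligase, differed by 0.44 ± 0.11 (adjusted p = 0.0168) in LT-HSC and by 0.01 ± 0.11 in MPP, where it did not pass. For Exo1, Fen1 and Lig1, the counts called higher on average, in LT-HSC, in ST-HSC and in MPP were 2, 1, 1 and 1 without the narrow arrays and 2, 1, 2 and 0 without the sgEzh2-described FL arrays.

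Nasp, a chaperone that keeps a pool of histones for new chromatin, had the largest average difference of any member. Nasp read 10.48, 10.41 and 10.15 in FL LT-HSC, 10.47, 10.64 and 10.18 in FL ST-HSC and 10.80, 10.79 and 10.69 in FL MPP, against 9.13, 9.19 and 9.25 in BM LT-HSC, 9.55, 8.74 and 8.58 in BM ST-HSC and 9.94, 10.17 and 10.02 in BM MPP. All FL arrays were above the BM arrays of their population, and BM MPP was the closest BM group to FL. The difference was 1.16 ± 0.19 (adjusted p = 0.000664) in LT-HSC, 1.47 ± 0.19 (adjusted p = 5.76e-05) in ST-HSC and 0.72 ± 0.19 (adjusted p = 0.0326) in MPP. Chaf1a, the large subunit of chromatin assembly factor, which places histones behind the fork, followed. Chaf1a read 10.80, 10.62 and 10.57 in FL LT-HSC, 10.72, 10.47 and 10.64 in FL ST-HSC and 10.80, 10.73 and 10.83 in FL MPP, against 10.24, 10.44 and 9.91 in BM LT-HSC, 10.34, 9.79 and 10.10 in BM ST-HSC and 10.45, 10.42 and 10.45 in BM MPP. It separated in each population, with an average difference of 0.45 ± 0.09 (adjusted p = 0.000766). Chaf1b, its partner, at 0.23 ± 0.10 (adjusted p = 0.114), did not pass, and its LT-HSC difference was 0.03 ± 0.18. For Nasp, Chaf1a and Chaf1b, the counts called higher on average, in LT-HSC, in ST-HSC and in MPP were 2, 1, 1 and 1 without the narrow arrays and 2, 1, 1 and 0 without the sgEzh2-described FL arrays.

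The genes of deoxynucleotide supply, Rrm1, Rrm2 and Tyms, were each called higher on average (median 0.48) and in ST-HSC, and none in LT-HSC or MPP. Rrm1 and Rrm2 encode the large and small subunits of ribonucleotide reductase and Tyms encodes thymidylate synthase. Rrm2 read 9.43, 8.83 and 9.93 in FL LT-HSC, 9.47, 9.55 and 9.18 in FL ST-HSC and 9.92, 9.68 and 9.87 in FL MPP, against 8.79, 9.05 and 9.45 in BM LT-HSC, 9.16, 8.30 and 7.91 in BM ST-HSC and 9.43, 9.39 and 9.22 in BM MPP. Rrm2 varied by over 1 log2 unit within FL LT-HSC and within BM ST-HSC, overlapped in LT-HSC, and differed on average by 0.57 ± 0.16 (adjusted p = 0.0122). Rrm1 read 11.02, 10.88 and 11.27 in FL LT-HSC, 10.63, 11.14 and 10.78 in FL ST-HSC and 11.14, 11.13 and 11.16 in FL MPP, against 10.68, 10.68 and 10.78 in BM LT-HSC, 10.59, 9.92 and 9.54 in BM ST-HSC and 10.95, 11.00 and 10.74 in BM MPP. Rrm1 separated in each population, in LT-HSC and ST-HSC by small gaps, and BM ST-HSC b and c lay well under all other arrays. Its average difference was 0.48 ± 0.11 (adjusted p = 0.00481), and that of Tyms was 0.31 ± 0.07 (adjusted p = 0.004). For Rrm1, Rrm2 and Tyms, the counts called higher on average, in LT-HSC, in ST-HSC and in MPP were 2, 1, 0 and 1 without the narrow arrays and 1, 0, 1 and 0 without the sgEzh2-described FL arrays.

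Within each source, replication genes were lowest in a stem cell group and highest in MPP. In BM, 42 of 46 members had their group means in the order MPP, LT-HSC, ST-HSC from high to low. This held for 24 without the narrow arrays, where MPP was the highest BM group for 42. The mean over members per array was 10.40 ± 0.05 (SD, n = 3) in BM MPP, 10.06 ± 0.10 in BM LT-HSC and 9.82 ± 0.22 in BM ST-HSC, and in FL it was 10.64 ± 0.03 in MPP, 10.43 ± 0.09 in ST-HSC and 10.42 ± 0.05 in LT-HSC. The narrow BM ST-HSC b and c were at 9.76 and 9.63, and BM ST-HSC a, at 10.06, lay between BM LT-HSC a and b, at 10.03 and 10.17. BM ST-HSC had the lowest group mean for 41 members with all arrays and for 24 without the narrow ones, where BM LT-HSC was lowest for 18. FL MPP had the highest group mean for 37 and 36 members. The ranges of BM MPP and the FL stem cell groups met: the BM MPP mean was above the FL LT-HSC mean for 19 members and above the FL ST-HSC mean for 21. Adult MPP thus sat near fetal stem cells in the mean level of these transcripts. In that mean over members, FL LT-HSC and FL ST-HSC did not differ beyond their spread. Single members such as Orc4 and Rpa3 were lower in all FL LT-HSC arrays than in all FL ST-HSC arrays, and neither passed. That order is a description of group means. The share of all genes with the same orders was not computed, so these counts do not show a trait particular to replication genes.

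**Figure D5:**
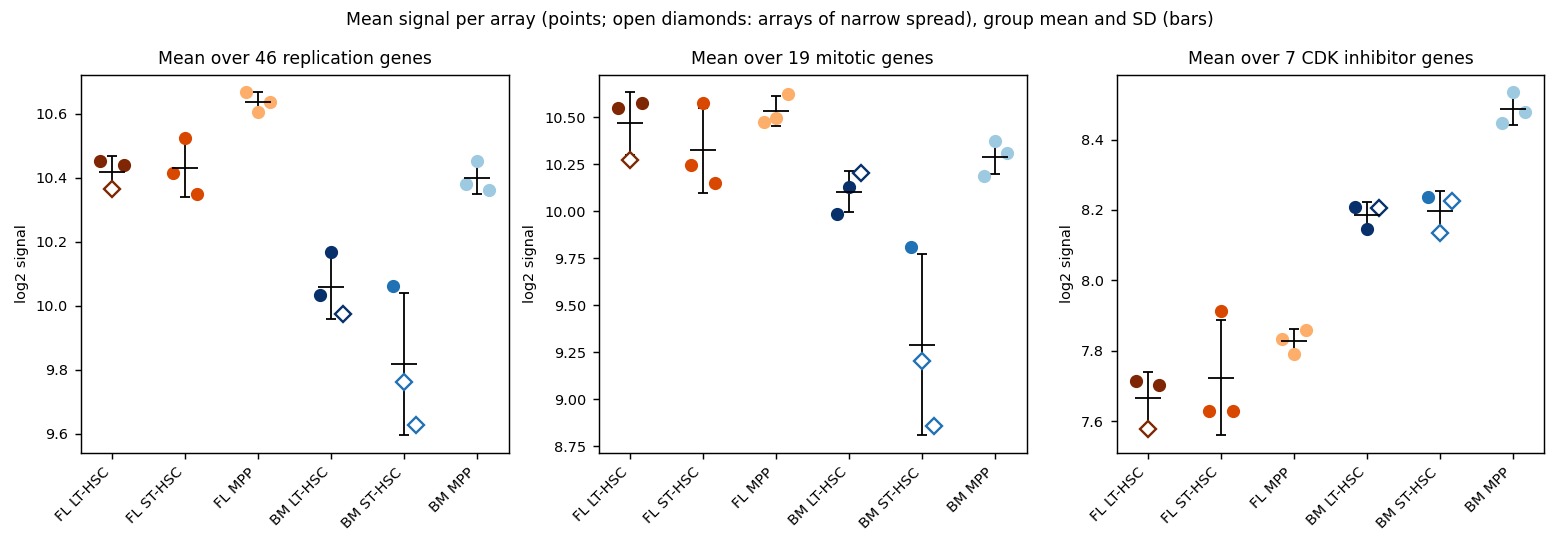
Mean log2 signal per array over the 46 replication genes, 19 mitotic genes and 7 CDK inhibitor genes (points, with open diamonds for narrow arrays), with group mean and SD as bars. The group means of replication and mitotic genes are lowest in BM ST-HSC, where arrays b and c are narrow and array a is higher, and the CDK inhibitors are lower in all FL groups than in all BM groups.

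In BM, 25 members were called lower in ST-HSC than in MPP and none higher, beside 4.79% and 1.31% of all genes, with a median of -0.53. Gins1, Pole2 and Exo1 had the largest differences, at -1.36 ± 0.21 (adjusted p = 0.00132), -1.13 ± 0.20 (adjusted p = 0.00276) and -1.12 ± 0.23 (adjusted p = 0.00829). BM ST-HSC was not uniform: array a was above b and c for 38 of 46 members, c was the lowest of the 18 arrays for 30, and b and c are narrow. The share of all genes with these array orders was not computed. Without the narrow arrays 1 member passed, beside 1.16% of genes called lower, and the median was -0.36. All BM ST-HSC arrays were below all BM MPP arrays for 39 members, beside 17.7% of genes, and array a alone was for 41, beside 33%. The count was 38 without BM ST-HSC a, 11 without b, 6 without c, 8 without BM MPP b and 16 without the sgEzh2-described FL arrays, beside 11.3%, 1.82%, 1.37%, 1.48% and 2.35% of genes called lower. These comparisons share the BM ST-HSC arrays with the FL against BM difference in ST-HSC, so the values are not independent of it.

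BM LT-HSC against MPP gave 6 members called lower (Mcm4, Gins1, Gins2, Rfc2, Exo1 and Nasp) and none higher, beside 2.35% and 2.23% of all genes, with a median of -0.29. Gins1 differed by -0.93 ± 0.21 (adjusted p = 0.0159), Exo1 by -0.87 ± 0.23 (adjusted p = 0.0364) and Nasp by -0.85 ± 0.19 (adjusted p = 0.0139). The count was 3 without FL MPP a, 2 without BM LT-HSC a, 1 without BM MPP a or c and 0 without BM MPP b, beside 1.94%, 1.98%, 1.33%, 1.26% and 1.0% of genes. It was 8 without the narrow arrays and 1 without the sgEzh2-described FL arrays, beside 3.17% and 1.19%. BM LT-HSC against ST-HSC gave 0 called members, beside 1.21% of genes higher and 0.502% lower, with a median of 0.21. At an unadjusted p under 0.05, a looser threshold than that of these shares, it had 10 members. The share of all genes at that looser threshold is not given, so the 10 are no result about the members. Cdc45, Rrm1 and Rrm2 had the largest differences, at 0.79 ± 0.20 (adjusted p = 0.0562), 0.69 ± 0.20 (adjusted p = 0.0882) and 0.63 ± 0.27 (adjusted p = 0.337). That count was 6 without BM ST-HSC a, 4 without BM LT-HSC c, 1 without FL ST-HSC b or BM LT-HSC a, and 22 with array weights, beside 2.6%, 2.93%, 1.23%, 1.49% and 14.2% of genes called higher. Without the narrow arrays it was 0 and the median was 0.03.

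In FL, 0 members passed in any comparison of populations by limma. LT-HSC against MPP had a member median of -0.24, and 1.84% of all genes were called lower and 1.57% higher. At an unadjusted p under 0.05, a looser threshold than that of these shares, it had 14 members. The share of all genes at the unadjusted threshold is not given, here or for the other FL pairs. Such counts are therefore no result about the members. Cdc45 (-0.59 ± 0.20, adjusted p = 0.144), Gins1 (-0.49 ± 0.21, adjusted p = 0.293) and Orc1 (-0.49 ± 0.21, adjusted p = 0.263) had the largest differences. ST-HSC against MPP had a median of -0.23, with 0.677% of all genes called lower and 1.58% higher, and 13 members at that unadjusted threshold. Orc1 (-0.54 ± 0.21, adjusted p = 0.229), Fen1 (-0.53 ± 0.17, adjusted p = 0.122) and Cdc45 (-0.51 ± 0.20, adjusted p = 0.263) led there. LT-HSC against ST-HSC had a median of 0.00, with 0.467% of all genes called lower and 0.0923% higher, and 3 members at that unadjusted threshold. Its largest differences were those of Orc4 (-0.63 ± 0.15, adjusted p = 0.0808), Rpa3 (-0.40 ± 0.15, adjusted p = 0.438) and Rfc3 (-0.27 ± 0.26, adjusted p = 0.796). Without the narrow arrays 1 member passed for LT-HSC against MPP and 2 for ST-HSC against MPP, all lower, beside 2.76% and 2.37% of genes. With array weights 1 and 8 passed, beside 3.84% and 4.03%. Without FL ST-HSC b, 1 passed for ST-HSC against MPP, beside 0.733%, and 1 passed for LT-HSC against ST-HSC without BM LT-HSC a, b or c, beside 0.472%, 0.446% and 1.0%.

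Genes that act with these members were mostly higher in FL too. Of 27 other firing and fork factors measured, 21 were called higher on average and 1 lower, with a median of 0.38. Dna2, a flap nuclease and helicase, was at 8.40 to 9.16 (median 8.82) in FL and 7.08 to 8.43 (median 8.05) in BM and differed by 0.98 ± 0.13 (adjusted p = 2.56e-05). Atad5, which unloads the clamp, differed by 0.86 ± 0.19 (adjusted p = 0.00203), and Ticrr, a firing factor, by 0.65 ± 0.11 (adjusted p = 0.000239). Pold4, the small subunit of polymerase delta, was the 1 called lower, at -0.26 ± 0.07 (adjusted p = 0.00804), was not called without the sgEzh2-described FL arrays, and was named after its value was seen. In ST-HSC 19 were called higher, in LT-HSC and MPP 1 each. For the firing and fork factors, the counts called higher on average, in LT-HSC, in ST-HSC and in MPP were 14, 6, 5 and 3 without the narrow arrays and 10, 0, 11 and 0 without the sgEzh2-described FL arrays. Of 14 further nucleotide supply genes, 9 were called higher and none lower (median 0.36), led by Ctps (0.76 ± 0.14), Shmt1 (0.76 ± 0.10) and Cad (0.71 ± 0.20), which make CTP, folate-bound carbon and pyrimidines. For the further nucleotide supply genes, the counts called higher on average, in LT-HSC, in ST-HSC and in MPP were 9, 2, 2 and 5 without the narrow arrays and 4, 0, 3 and 0 without the sgEzh2-described FL arrays.

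Of 11 other histone chaperone and maintenance genes, 6 were called higher and none lower (median 0.27), led by Uhrf1 (0.59 ± 0.07), which guides maintenance methylation, Hells (0.51 ± 0.08) and Hat1 (0.51 ± 0.09). For these chaperone genes, the counts called higher on average, in LT-HSC, in ST-HSC and in MPP were 5, 2, 1 and 1 without the narrow arrays and 5, 1, 3 and 0 without the sgEzh2-described FL arrays. Of 14 checkpoint genes 6 were higher and none lower (median 0.28), led by Fanci (0.56 ± 0.10), Rad1 (0.48 ± 0.09) and Etaa1 (0.48 ± 0.10). For the checkpoint genes, the counts called higher on average, in LT-HSC, in ST-HSC and in MPP were 3, 0, 1 and 1 without the narrow arrays and 3, 0, 2 and 0 without the sgEzh2-described FL arrays. Their median was 0.10 without the narrow arrays. The regulators of E2F and S phase entry were mixed, with 10 of 21 higher, 2 lower and a median of 0.26. Mycn was at 10.32 to 11.08 (median 10.82) in FL and 8.74 to 10.60 (median 9.25) in BM and differed by 1.32 ± 0.14 (adjusted p = 2.05e-06), and Skp2, which targets the inhibitor encoded by Cdkn1b for degradation, by 1.16 ± 0.10 (adjusted p = 1.92e-07). Rbl2, a pocket protein that represses E2F targets, was lower by 0.78 ± 0.06 (adjusted p = 3.05e-08) on the log2 scale, and so was Myc, at -0.58 ± 0.11 (adjusted p = 0.000711), named after its value was seen. The pair Mycn and Myc therefore moved in opposite directions. For these regulators, the counts called higher on average, in LT-HSC, in ST-HSC and in MPP were 9, 7, 4 and 3 without the narrow arrays and 6, 1, 5 and 0 without the sgEzh2-described FL arrays. The median of the regulators on average was 0.21 without the narrow arrays and 0.22 without the sgEzh2-described FL arrays.

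Mitotic genes were mostly higher in FL, and 3 CDK inhibitor genes were lower. Of 19 measured mitotic genes 15 were called higher on average and none lower (median 0.53), 17 in ST-HSC and 0 in LT-HSC or MPP, where the medians were 0.37 and 0.24. Of all genes, 15.9% were called higher on average, 12.1% in ST-HSC, 3.08% in LT-HSC and 1.92% in MPP. For the mitotic genes, the counts called higher on average, in LT-HSC, in ST-HSC and in MPP were 14, 7, 4 and 3 without the narrow arrays and 11, 0, 14 and 0 without the sgEzh2-described FL arrays. Bub1b (1.06 ± 0.17, adjusted p = 0.000145), Bub1 (1.01 ± 0.17, adjusted p = 0.000225) and Kif20a (0.88 ± 0.13, adjusted p = 6.77e-05), of the spindle checkpoint and cytokinesis, led them. The mean over the 19 mitotic genes was 9.29 ± 0.48 (SD, n = 3) in BM ST-HSC, with array a at 9.81, and 10.10 ± 0.11 in BM LT-HSC. Of 7 CDK inhibitor genes, Cdkn1a, Cdkn2c and Cdkn1b were called lower in FL and none higher (median -0.21), and 3 were called lower without the narrow arrays and 3 without the sgEzh2-described FL arrays. Cdkn1a, which encodes p21, was at 7.96 to 9.52 (median 8.62) in FL and 8.66 to 11.33 (median 10.29) in BM and differed by -1.58 ± 0.13 (adjusted p = 6.25e-08). Cdkn2c differed by -1.25 ± 0.09 (adjusted p = 1.81e-08) and Cdkn1b, which encodes p27, by -0.82 ± 0.11 (adjusted p = 2.63e-05). With all arrays, 9.26% of all genes were called lower on average, and that share is not given for the inhibitor counts with arrays left out. The mean over the 7 inhibitors was 7.58 to 7.91 per array in FL and 8.13 to 8.54 in BM, with no overlap. Mki67 differed by 0.04 ± 0.11 and Tk1 by 0.04 ± 0.07, beside the 0.09 ± 0.07 of Pcna. None of the 3 passed, and they were picked out after their values were seen, while other genes of cycling cells, such as Mcm2 at 0.38 ± 0.08 and Rrm2 at 0.57 ± 0.16, were called higher.

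Across arrays the members rose and fell largely together. The correlation of a member with the mean of the other members over the 18 arrays had a median of 0.89, from -0.01 for Pold2 to 0.97 for Mcm10, and the median over all genes with the member mean was 0.02. Within groups, after each group mean was taken out, the median was 0.63, from -0.64 for Pold2 to 0.85 for Gins4. The arrays share their groups, their spread and their processing, so these are descriptions. Pold2, Pola1 (0.43), Orc4 (0.46), Pcna (0.55) and Orc2 (0.57) followed the rest least. Outside the list, the genes most like the member mean over the 18 arrays were Nop9 and Mrpl19 at 0.98 and Tufm, Pask, Trip13, Prpf38a, Fignl1, Haus1, Nudcd2 and Tbl3 at 0.97.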

How the data were processed

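The deposited table held 1 log2 signal for each probe set on 18 Clariom S arrays. The authors used R 3.5.01 and oligo, per the submitters' processing notes. How they corrected background, normalized and summarized is not given in the sources used here. Of 22203 probe sets, 19572 carried 1 symbol in the platform annotation and matched RefSeq (GRCm38.p6) by Entrez number. For a symbol with several, the probe set with the highest mean was kept, which set aside 67 and left 19505 genes. The other 2631 were left out.

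Group means were fitted with limma 3.58.1 in R 4.3.3 (lmFit, eBayes) to all 18 arrays, in 10 comparisons and 3 interaction contrasts. A gene was called where its p, adjusted by Benjamini-Hochberg across the 19505 genes, was under 0.05. Errors are SE of differences and SD of means. Precision is limited by the number of arrays, with a median SE of 0.10 on the log2 scale for the average, 0.17 for 3 arrays against 3 and 0.24 for an interaction. No 2 arrays were identical. The script was tested on simulated data.

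The members and the gene lists were chosen with earlier results of these data known. Per-array values are given for the members with the largest average difference in each role (at most 2) and in each comparison of populations (3). Those of Pola1 and Pcna, and those of Mcm6 and Rfc2 in MPP, fall outside that rule. Up to 3 genes of each other list are named, with further ones marked, apart from Pole3 and Pole4. Alternatives covered arrays left out, quantile normalization, median centring, dim genes, probe set means, array weights, a replicate block and eBayes options. No label says that letters a, b and c pair arrays. Same-letter deviations correlated between -0.46 and 0.53 (median -0.03), over 0.1 in 11 of 45 pairs. With 3 arrays a group these values cannot exclude pairing of some arrays.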

Additional observations from a re-analysis of the deposited data

How the results depend on the processing

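Of the count results under alternatives, 306 stayed within 1.5 times their value and 67 did not. Of the single-member results, 4798 kept their side of the threshold, 271 lost a call, 83 gained one and none changed direction while called. Leaving out 1 array at a time gave 32 to 38 members higher in FL for the average, 5 to 13 in LT-HSC, 14 to 36 in ST-HSC and 0 to 3 in MPP. Within FL it gave 0 for LT-HSC against MPP and 0 to 1 for each other pair, and within BM 0 to 8 for LT-HSC against MPP, 0 to 6 for LT-HSC against ST-HSC and 6 to 38 for ST-HSC against MPP. The interactions gave 0 to 1 (ST-HSC minus LT-HSC), 0 (MPP minus LT-HSC) and 0 to 5 (MPP minus ST-HSC).

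Without the 4 narrow arrays, all FL arrays lay below all BM arrays for 1 member in LT-HSC and 1 in ST-HSC, beside 21.4% and 30% of all genes. The counts called were then 8 in MPP, 1 for FL LT-HSC against MPP and 2 for FL ST-HSC against MPP. Those fits hold fewer arrays, 1 of them alone in BM ST-HSC, where it is assumed to vary like the other groups. Without the 4 FL arrays described with sgEzh2 they were 22 for the average, 3 in LT-HSC, 18 in ST-HSC, 0 in MPP, 1 for BM LT-HSC against MPP and 16 for BM ST-HSC against MPP. Without FL ST-HSC b and c they were 8 in ST-HSC, 1 in MPP, 3 for BM LT-HSC against MPP and 1 for BM LT-HSC against ST-HSC. Array weights gave 17 in MPP, 1 for FL LT-HSC against MPP, 8 for FL ST-HSC against MPP, 10 for BM LT-HSC against MPP, 22 for BM LT-HSC against ST-HSC, 40 for BM ST-HSC against MPP, and 4 and 18 for the interactions of ST-HSC minus LT-HSC and MPP minus ST-HSC. BM LT-HSC against MPP gave 10 after median centring and 10 with the trended, robust eBayes. BM LT-HSC against ST-HSC gave 2 after repeated quantile normalization, 1 without the dimmest 30% of genes and 2 with the trended, robust eBayes. With 7-letter E2F words 25 members had a match in place of 14. Where no value above shows it, the cause was not tested. Counts of called members in this section stand without the share of all genes, so they describe the processing and are no result about the members.

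With the replicate letter as a replicate block the counts were 36 for the average, 10 in LT-HSC, 32 in ST-HSC and 3 in MPP, and 6 of 18 arrays correlated best with an array of their own letter. No label pairs arrays by letter, so the replicate block is no paired test.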
